A study of Sus scrofa with 9 samples.

Results

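Genes that modify, read or move chromatin were followed in embryonic longissimus dorsi muscle, the long muscle of the back, of 3 pig breeds. Members are the entries whose symbols fit a rule on gene families: histone methyltransferases and demethylases (EZH, KMT, SETD, SUV, SMYD, PRDM, PRMT, KDM), acetyltransferases and deacetylases (KAT, HDAC, SIRT), DNA methylation enzymes (DNMT, TET), reader proteins (BRD, CBX, PHF, ING), remodellers (SMARC, CHD, ARID, BAZ) and high mobility group proteins (HMG). The rule found 146 of the 19643 entries of the expression table, of which 11179 carried a symbol, and 128 of the 146 reached a mean of 1 FPKM over all libraries and entered the tests beside 13106 entries in all. Of 187 pig symbols in the RefSeq gene table that the rule matches, 43 paired with no entry by name, among them CBX5, HMGA1, HMGA2, HMGB1, KMT2D, SMARCA2, SUV39H1 and TET2, and these were not analysed here.

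The study profiled RNA of the muscle from 9 samples, 3 of each breed, all labelled embryonic with no day of gestation. Tibetan and Wujin pigs are labelled indigenous Chinese breeds and Large White pigs an introduced breed, and no treatment or allele is given for any of them. Values were deposited as FPKM (fragments per kilobase of transcript, scaled to the mapped fragments of each library), so levels are per length and the sequencing depth behind them is unknown. Libraries are named Tibetan 1, 2 and 3, Wujin 1, a and b, and Large White 1, 2 and 3, and values of a breed are given in that order. Whether a breed's samples were taken from different animals is not labelled. The p-values therefore test differences between breed means against the spread among these particular samples, and that spread may be technical.

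Chromatin enzymes fall into writers, which add methyl or acetyl groups to histones, erasers, which remove them, readers, which bind the marked histones, and remodellers, which use ATP to slide or evict nucleosomes. Members were counted in these groups by the family name in their symbol, and not by the activity of each protein. Polycomb repressive complex 2, built on EZH2 or EZH1, writes a repressive methyl mark, DNMT1 copies DNA methylation after replication, and several of these proteins are abundant in dividing cells. In mouse muscle cells EZH2 goes down while EZH1 persists as myoblasts become myotubes, KAT2B acetylates the muscle regulator MYOD1, and SMARCD3 brings the SWI/SNF remodeller to muscle genes.

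The Tibetan libraries stood apart from the rest across the whole table. Over all 13106 entries tested, the median log2(FPKM + 1) change was -0.77 between Tibetan and Large White, -0.55 between Tibetan and Wujin and -0.20 between Wujin and Large White libraries. The 10 entries of highest FPKM held between 32.6% and 40.8% of the summed FPKM in Tibetan, between 22.3% and 22.8% in Wujin and between 18.8% and 25% in Large White libraries. The muscle actin ACTA1, at 37424 and 41829 FPKM in Tibetan 1 and 3, was listed at 0 in Tibetan 2. Each change is therefore given as a relative log2 change, that is the fitted log2(FPKM + 1) change minus the median over all entries tested, with the standard error of the fit. It is Tibetan minus Large White wherever no other pair of breeds is named. The adjusted p-value (limma, Benjamini-Hochberg over all 13106 entries, threshold 0.05) tests the fitted change itself, and log2(FPKM + 1) understates the change of genes of low FPKM. A second scale, median-ratio scaling, divides each library by its median ratio to the average library and leaves a median change near 0, and calls that it changes are given beside the gene.

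Chromatin genes were mostly lower in Tibetan than in Large White muscle, more so in their median than the table as a whole. Of the 128 members tested, 4 were called higher (3.13%, against 13.0% of all entries), 105 lower (82.0%, against 63.2%) and 19 were not called. Their median fitted change was -0.93, beside -0.77 over all entries. After median-ratio scaling 27 members were higher and 48 lower, beside 32.4% and 33.0% of all entries, with a median change of -0.14 over the members and -0.011 over all entries. The 4 members higher on both scales were SMYD2, KAT2B, HDAC10 and SIRT2. Of the 105 lower as deposited, 48 were also lower after scaling, 50 were not called after it and 7 were called higher after it (KDM4B, BRD2, KAT7, SETD3, PRMT1, PRMT5 and EED). Another 16 were called higher only after scaling, and KDM6A, KMT2C and SETD4 on neither scale. All Tibetan libraries lay below all Large White libraries in 109 members (85.2%, against 66.5% of all entries) and above them in 6 (4.69%, against 14.1%), the 6 being SMYD2, KAT2B, HDAC10, SIRT2, SETD7 and EZH1. In bulk tissue, fewer cells that express a gene and less of its RNA per cell cannot be told apart.

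**Figure D1:**
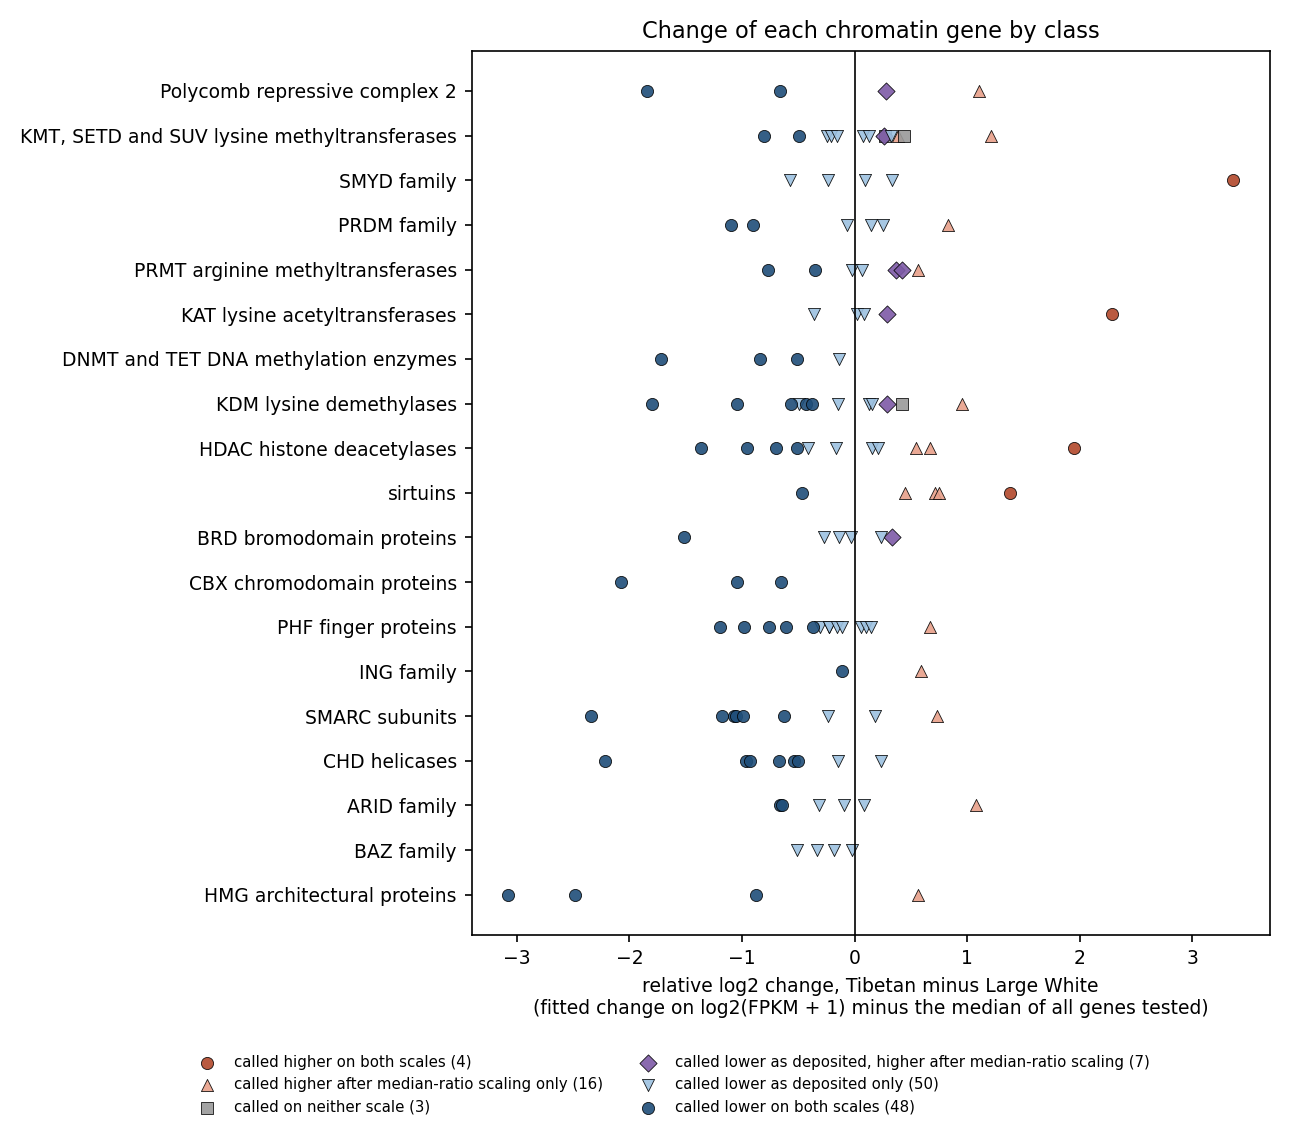
Relative log2 change of each of the 128 members, Tibetan minus Large White, by class, where each point is 1 gene and 0 on the horizontal axis is the median of all entries tested. Colour and shape give the call as deposited and after median-ratio scaling: 4 genes were higher and 48 lower on both, 50 were lower as deposited only, 16 were higher after scaling only, 7 turned from lower to higher and 3 were called on neither; SMYD2 stands at 3.37 and HMGB2 at -3.08.

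Among the writers, the catalytic subunits of Polycomb repressive complex 2 parted. EZH2, the subunit of dividing cells, stood at 0.415, 0.829 and 0.526 FPKM in Tibetan, 5.6, 6.36 and 6.7 FPKM in Wujin and 8.86, 8.6 and 8.66 FPKM in Large White libraries. No Tibetan library reached 1 FPKM and the 3 breeds did not overlap, with a relative change from Large White of -1.85 ± 0.13 (adjusted p = 2.86e-07). EZH1, the other catalytic subunit, stood at 7.07, 5.88 and 6.7 FPKM in Tibetan, 3.33, 4.77 and 5.31 FPKM in Wujin and 4.59, 4.9 and 5.49 FPKM in Large White libraries. Every Tibetan library lay above every library of the other breeds, but the fitted change from Large White of 0.33 was not called (adjusted p = 0.0793), was called without Wujin 1 (adjusted p = 0.0189), and was 1.17 ± 0.11 (adjusted p = 1.58e-05) after median-ratio scaling. The core subunits SUZ12 and EED, which hold the enzyme in the complex, were lower in Tibetan libraries as deposited. SUZ12 stood at 1.51, 1.3 and 2.03 FPKM in Tibetan, 2.18, 4.25 and 4.4 FPKM in Wujin and 5.38, 6.4 and 6.33 FPKM in Large White libraries, with Wujin 1 close to the Tibetan level and a relative change from Large White of -0.66 ± 0.21 (adjusted p = 0.000212). EED stood at 5.49, 3.99 and 4.4 FPKM in Tibetan, 4.64, 5.29 and 4.88 FPKM in Wujin and 6.47, 6.96 and 7.16 FPKM in Large White libraries, and its call turned from lower (-0.49 as fitted, adjusted p = 0.00588) to higher (0.34 ± 0.11, adjusted p = 0.0217) with median-ratio scaling.

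**Figure D2:**
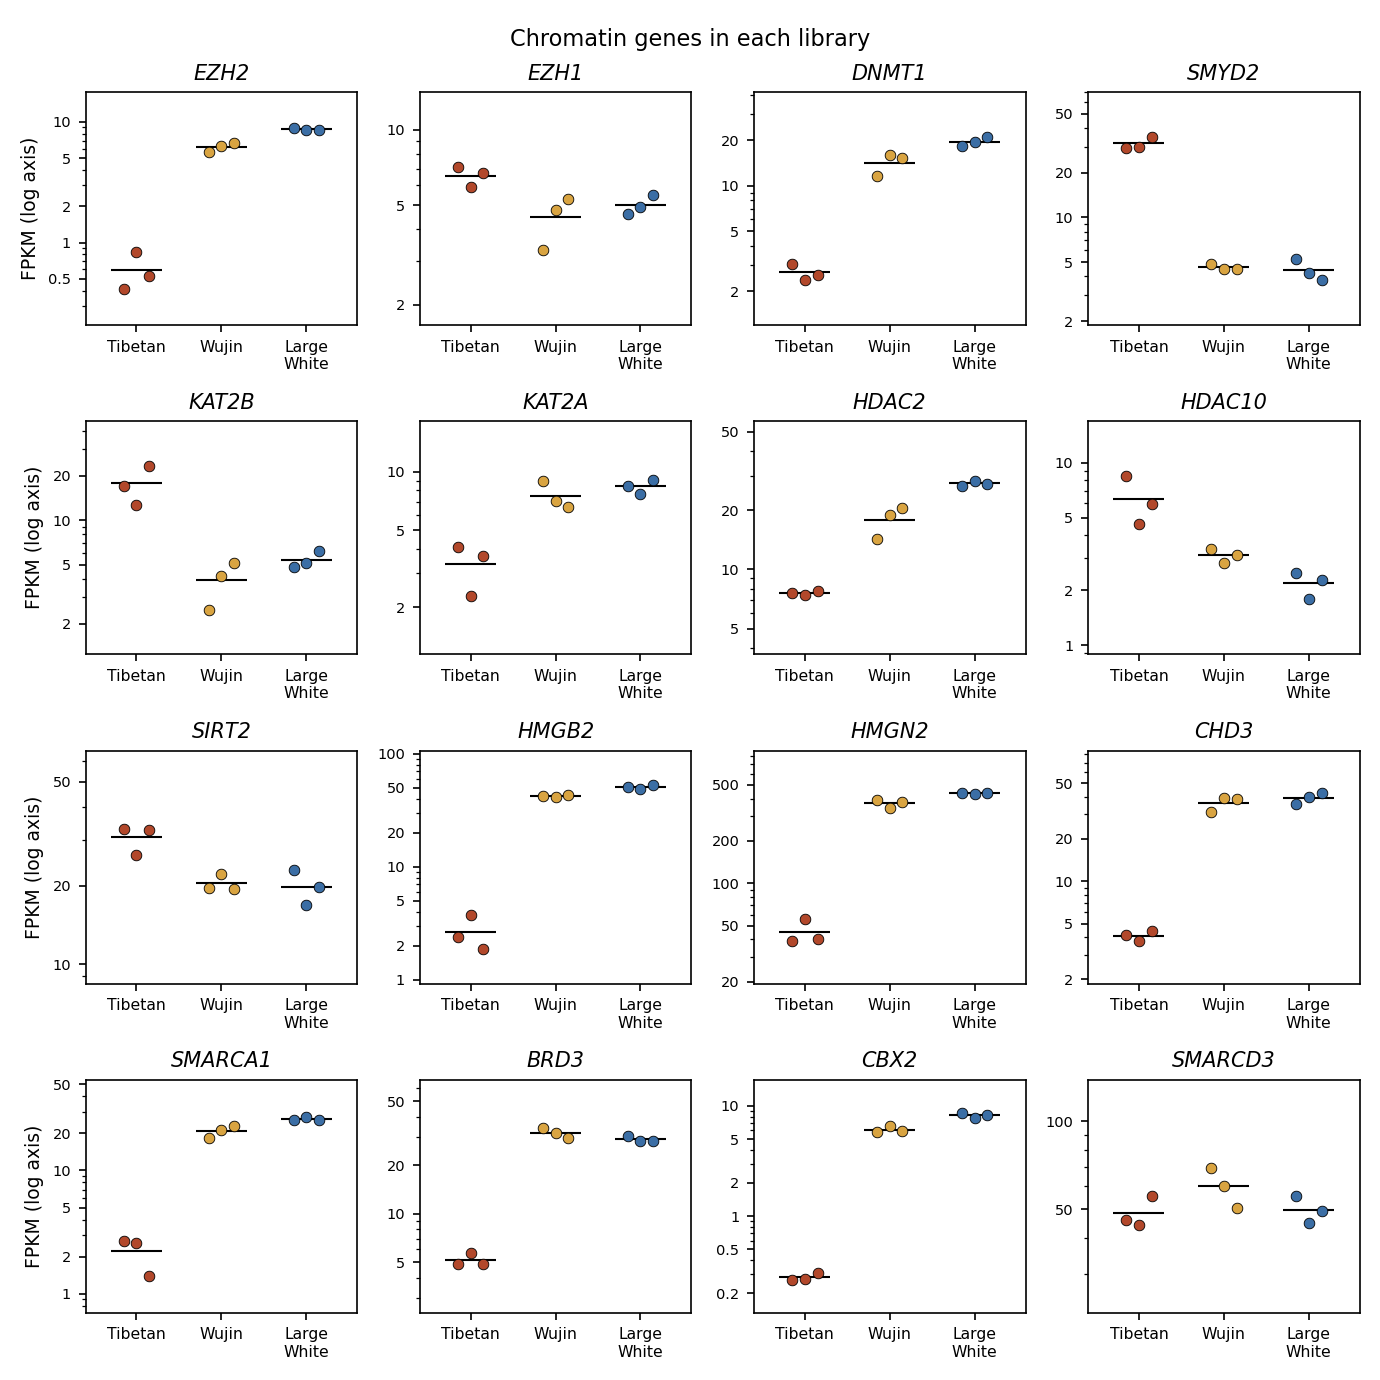
FPKM of 16 chromatin genes in each library on log axes, with points for the libraries and a line at the breed mean (n = 3). EZH2, DNMT1, HMGB2, HMGN2, CHD3, SMARCA1, BRD3 and CBX2 lie lower in every Tibetan library than in any other library, SMYD2, KAT2B, HDAC10, SIRT2 and EZH1 lie higher, and the Tibetan values of SMARCD3 overlap those of the other breeds.

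The KMT, SETD and SUV methyltransferases, which methylate histone lysines, had 13 members tested, 9 of them lower in Tibetan than in Large White libraries as deposited, and 2 lower and 3 higher after median-ratio scaling. Of all entries, 63.2% were lower as deposited, and 33.0% were lower and 32.4% higher after scaling. The members of this class lower on both scales were SETD5 and KMT2A. SETD5, a SET-domain protein, stood at 7.74, 7.82 and 7.26 FPKM in Tibetan, 17, 23.2 and 21 FPKM in Wujin and 22.7, 24.2 and 27.5 FPKM in Large White libraries. Tibetan SETD5 lay below every other library, at a relative change of -0.81 ± 0.14 (adjusted p = 6.73e-06). KMT2A, which methylates histones at active promoters, stood at 2.42, 1.66 and 1.84 FPKM in Tibetan, 2.22, 4.99 and 5.1 FPKM in Wujin and 5.23, 6.15 and 7.03 FPKM in Large White libraries, and Wujin 1 lay within the Tibetan range while the Large White libraries lay above it, a relative change of -0.49 ± 0.24 (adjusted p = 0.00115). SETD2, which methylates histones along transcribed genes, stood at 4.35, 4.15 and 3.62 FPKM in Tibetan, 6.22, 7.43 and 7.55 FPKM in Wujin and 8.33, 9.4 and 9.01 FPKM in Large White libraries. Tibetan SETD2 lay below every other library, at a relative change of -0.20 ± 0.12 (adjusted p = 6.13e-05), which was not called after scaling. SETD7, a methyltransferase of histones and other proteins, went the other way, at 20.6, 14.7 and 21.9 FPKM in Tibetan, 7.89, 13.4 and 13.1 FPKM in Wujin and 13.4, 14 and 13.4 FPKM in Large White libraries. The Tibetan libraries lay above all others, yet the fitted change from Large White of 0.44 was not called (adjusted p = 0.0813). Leaving out Tibetan 2 (adjusted p = 0.0274) or Wujin 1 (adjusted p = 0.0225) brought a call, and the change was 1.36 ± 0.15 (adjusted p = 5.27e-05) after scaling.

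The SMYD methyltransferases include factors of heart and skeletal muscle, and held the member that rose most in Tibetan muscle. SMYD2, which methylates histones and the chaperone HSP90 and binds titin in muscle, stood at 29.5, 30.0 and 35.1 FPKM in Tibetan, 4.88, 4.49 and 4.5 FPKM in Wujin and 5.22, 4.25 and 3.76 FPKM in Large White libraries. The lowest Tibetan library was more than 5 times the highest of the others, and the relative change from Large White was 3.37 ± 0.13 (adjusted p = 3.16e-07). SMYD1, a muscle protein needed for sarcomere assembly in zebrafish and mouse, stood at 47.5, 26.7 and 76.4 FPKM in Tibetan, 33.9, 77.5 and 83.4 FPKM in Wujin and 91.2, 84.9 and 105 FPKM in Large White libraries. Libraries of both indigenous breeds spread widely below the Large White values, and the relative change was -0.23 ± 0.41 (adjusted p = 0.0468). That call was lost after median-ratio scaling, with no minimum on FPKM and without Tibetan 1, Tibetan 2, Wujin a or any 1 Large White library, with adjusted p-values 0.0131 to 0.171 over the libraries left out. SMYD3, SMYD4 and SMYD5 were lower in Tibetan libraries as deposited and not called after scaling.

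Of 6 PRDM zinc finger proteins tested, 5 were lower in Tibetan than in Large White libraries as deposited, and 2 lower and 1 higher after scaling. The shares of all entries were 63.2% lower as deposited, and 33.0% lower and 32.4% higher after scaling. PRDM11, a member of the family that carry a PR domain, was lower on both scales and stood at 0.155, 0.0938 and 0.327 FPKM in Tibetan, 1.07, 1.45 and 2.07 FPKM in Wujin and 2.94, 3.05 and 4.15 FPKM in Large White libraries. It was under 0.4 FPKM in every Tibetan library and above 2 FPKM in every Large White library, with a relative change of -1.10 ± 0.18 (adjusted p = 1.50e-05).

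Arginine methyltransferases split by gene and by scale. PRMT2, which methylates arginines of histones, stood at 2.3, 1.75 and 2.93 FPKM in Tibetan, 5.36, 6.31 and 6.15 FPKM in Wujin and 8.91, 8.47 and 8.43 FPKM in Large White libraries, with no overlap among the breeds and a relative change of -0.77 ± 0.14 (adjusted p = 1.09e-05). PRMT1, the main enzyme of asymmetric arginine dimethylation and the member of highest FPKM among the writers, stood at 101, 111 and 108 FPKM in Tibetan, 171, 156 and 161 FPKM in Wujin and 157, 140.3 and 128 FPKM in Large White libraries. The Tibetan values lay below all others, so the call was lower (-0.40 as fitted, adjusted p = 0.0093), but it turned to higher with median-ratio scaling, at 0.57 ± 0.16 (adjusted p = 0.0123). PRMT5, the main enzyme of symmetric dimethylation, stood at 18.7, 13.2 and 17.1 FPKM in Tibetan, 14.9, 16.1 and 15 FPKM in Wujin and 20.9, 20.4 and 21.5 FPKM in Large White libraries. It was called lower (-0.35 as fitted, adjusted p = 0.0367) and likewise turned to higher with median-ratio scaling, at 0.58 ± 0.12 (adjusted p = 0.00255). As deposited, the PRMT5 call was lost without Tibetan 2, Wujin a, Wujin b or any 1 Large White library (adjusted p 0.0157 to 0.0954 over the libraries left out), within the 6 libraries of this pair of breeds (adjusted p = 0.0549), and with replicate number as a block (adjusted p = 0.0649).

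The paired acetyltransferases KAT2A and KAT2B moved in opposite directions as deposited. KAT2B, also called PCAF, stood at 17.1, 12.7 and 23.3 FPKM in Tibetan, 2.48, 4.2 and 5.16 FPKM in Wujin and 4.82, 5.15 and 6.2 FPKM in Large White libraries. Every Tibetan library was above 12 FPKM and every other library under 7 FPKM, a relative change of 2.29 ± 0.25 (adjusted p = 0.000462). KAT2A, also called GCN5, stood at 4.09, 2.3 and 3.7 FPKM in Tibetan, 8.91, 7.07 and 6.57 FPKM in Wujin and 8.48, 7.67 and 9.08 FPKM in Large White libraries. For KAT2A the breeds parted between Tibetan and the rest, with a relative change of -0.36 ± 0.18 (adjusted p = 0.000367), which was not called after median-ratio scaling. KAT5, KAT6B and KAT7, which acetylate histones in other complexes, were lower in Tibetan libraries as deposited, and after scaling KAT7 was called higher and the others were not called.

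The enzymes of DNA methylation were lower in Tibetan than in Large White muscle in all 4 members tested as deposited and in 3 after scaling. Over all entries these shares were 63.2% and 33.0%. DNMT1, the maintenance methyltransferase, stood at 3.03, 2.38 and 2.58 FPKM in Tibetan, 11.5, 16 and 15.3 FPKM in Wujin and 18.3, 19.5 and 21 FPKM in Large White libraries. The breeds did not overlap, and the relative change was -1.72 ± 0.14 (adjusted p = 6.36e-07). TET1, which oxidises methylated cytosine, stood at 0.348, 0.335 and 0.665 FPKM in Tibetan, 2.35, 3.37 and 3.65 FPKM in Wujin and 2.7, 3.74 and 3.86 FPKM in Large White libraries. In TET1 no Tibetan library reached the level of another breed, and the relative change was -0.84 ± 0.18 (adjusted p = 3.36e-05). DNMT3B, a de novo methyltransferase, was near the lower limit of the tests at 0.0554, 0.235 and 0.134 FPKM in Tibetan, 1.2, 1.3 and 1.41 FPKM in Wujin and 1.41, 2.03 and 1.94 FPKM in Large White libraries. Tibetan DNMT3B lay below every other library, at a relative change of -0.51 ± 0.14 (adjusted p = 3.42e-05). DNMT3A, the other de novo enzyme, kept more of its level, at 6.09, 9.56 and 11.7 FPKM in Tibetan, 17.1, 18.7 and 17.4 FPKM in Wujin and 16.6, 18 and 17.7 FPKM in Large White libraries, and its relative change of -0.14 ± 0.19 (adjusted p = 0.00191) was not called after scaling.

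Of 28 erasers tested, 19 were lower and 2 higher in Tibetan than in Large White libraries as deposited. After scaling 10 were lower and 9 higher. Among these erasers, 10 of 12 lysine demethylases tested were lower as deposited, and 5 lower and 2 higher after scaling. Beside them, 63.2% of all entries were lower and 13.0% higher as deposited, and 33.0% were lower and 32.4% higher after scaling. KDM5B, which removes methyl groups from histones at active promoters, stood at 1.99, 2.33 and 2.31 FPKM in Tibetan, 8.24, 14.2 and 13.5 FPKM in Wujin and 16.9, 17.8 and 19.4 FPKM in Large White libraries. Its relative change of -1.80 ± 0.18 (adjusted p = 2.32e-06) was the lowest of the class. KDM1A, the amine oxidase also called LSD1, stood at 4.89, 4.07 and 3.91 FPKM in Tibetan, 12.6, 14.6 and 14.2 FPKM in Wujin and 18.7, 17.3 and 16.9 FPKM in Large White libraries. For KDM1A the 3 breeds did not overlap, with a relative change of -1.05 ± 0.12 (adjusted p = 1.23e-06). KDM3A, which acts on a repressive methyl mark, stood at 1.72, 1.79 and 1.86 FPKM in Tibetan, 3.13, 4.21 and 4.3 FPKM in Wujin and 5.52, 6.22 and 6.4 FPKM in Large White libraries, with the breeds in the same order and no overlap, and a relative change of -0.56 ± 0.13 (adjusted p = 1.51e-05). KDM8, also called JMJD5, stood instead at 4.89, 6.02 and 5.62 FPKM in Tibetan, 4.72, 4.19 and 4.17 FPKM in Wujin and 5.12, 4.94 and 4.18 FPKM in Large White libraries, so that the Tibetan libraries lay above the Wujin ones and overlapped those of Large White. Its fitted change of 0.18 was not called (adjusted p = 0.204) and was 1.0 ± 0.16 (adjusted p = 0.000421) after scaling.

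HDAC1, HDAC2 and HDAC3, class I deacetylases that work in corepressor complexes, were lower in Tibetan muscle on both scales. HDAC8, the other class I enzyme, was lower as deposited and not called after scaling, at 2.22, 2.02 and 0.598 FPKM in Tibetan, 1.13, 2.1 and 2.56 FPKM in Wujin and 4.64, 4.9 and 4.48 FPKM in Large White libraries. HDAC2 stood at 7.59, 7.42 and 7.75 FPKM in Tibetan, 14.3, 18.9 and 20.6 FPKM in Wujin and 26.7, 28.3 and 27.1 FPKM in Large White libraries. In HDAC2 no Tibetan library reached the level of another breed, and the relative change was -0.95 ± 0.14 (adjusted p = 4.06e-06). HDAC3, the enzyme of the NCOR complexes, stood at 8.73, 9.31 and 8.4 FPKM in Tibetan, 22.8, 23.6 and 21.8 FPKM in Wujin and 25, 26.3 and 27.1 FPKM in Large White libraries. Tibetan HDAC3 lay below every other library, at a relative change of -0.69 ± 0.099 (adjusted p = 1.58e-06). HDAC1 stood at 1.44, 0.956 and 1.09 FPKM in Tibetan, 4.29, 4.05 and 4.0 FPKM in Wujin and 4.21, 3.9 and 4.65 FPKM in Large White libraries. For HDAC1 the breeds parted between Tibetan and the rest, with a relative change of -0.51 ± 0.13 (adjusted p = 1.48e-05). Class IIa deacetylases, which repress MEF2 in muscle, did not move as one. HDAC9 stood at 0.483, 0.437 and 2.12 FPKM in Tibetan, 2.94, 6.81 and 6.78 FPKM in Wujin and 7.37, 7.73 and 6.72 FPKM in Large White libraries, with Tibetan 3 several times the other Tibetan libraries and a relative change of -1.36 ± 0.34 (adjusted p = 0.000358). HDAC5 stood at 26.4, 18.9 and 26.2 FPKM in Tibetan, 42.7, 39.1 and 36.4 FPKM in Wujin and 37.1, 31.6 and 37.4 FPKM in Large White libraries, and was called lower (-0.56 as fitted, adjusted p = 0.00727) but had a change of 0.38 ± 0.16 (adjusted p = 0.0641) after median-ratio scaling. HDAC7 stood at 6.91, 3.1 and 5.19 FPKM in Tibetan, 9.24, 12 and 13.3 in Wujin and 9.57, 9.43 and 11.9 in Large White libraries. It was called lower as deposited, at a relative change of -0.17 ± 0.24 (adjusted p = 0.00508), and not called after scaling. HDAC4 was not called as deposited and higher after scaling. HDAC10, a deacetylase of polyamines, was the 1 member of its family that rose in Tibetan muscle as deposited, at 8.43, 4.61 and 5.97 FPKM in Tibetan, 3.38, 2.83 and 3.11 FPKM in Wujin and 2.5, 1.78 and 2.29 FPKM in Large White libraries. Each Tibetan library lay above each other library, and the relative change was 1.95 ± 0.19 (adjusted p = 0.000379).

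Of the 5 NAD-dependent sirtuins 1 was lower in Tibetan than in Large White libraries on both scales, SIRT1, and 1 was higher on both, SIRT2. As deposited 3 were not called, and after scaling 4 were higher and 1 lower. For all entries the shares were 63.2% lower and 13.0% higher as deposited, and 33.0% lower and 32.4% higher after scaling. SIRT2, a mostly cytoplasmic deacetylase, stood at 33, 26.2 and 32.8 FPKM in Tibetan, 19.6, 22.2 and 19.4 FPKM in Wujin and 22.9, 16.8 and 19.8 FPKM in Large White libraries, above all other libraries in each Tibetan library, a relative change of 1.38 ± 0.15 (adjusted p = 0.00401). SIRT1, a nuclear deacetylase, stood at 1.23, 1.4 and 1.33 FPKM in Tibetan, 1.94, 2.7 and 3.25 FPKM in Wujin and 4.47, 4.73 and 4.28 FPKM in Large White libraries, with the breeds apart from each other and a relative change of -0.47 ± 0.15 (adjusted p = 5.07e-05). SIRT3, the main mitochondrial deacetylase, stood at 4.06, 3.32 and 4.83 FPKM in Tibetan, 3.41, 4.15 and 3.53 FPKM in Wujin and 3.94, 4.32 and 4.49 FPKM in Large White libraries. The breeds overlapped, and the fitted change of -0.059 was not called (adjusted p = 0.709) and was 0.73 ± 0.12 (adjusted p = 0.000602) after scaling. SIRT4 and SIRT6 were likewise not called as deposited and higher after scaling.

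Among the readers, 23 of 25 tested were lower in Tibetan than in Large White libraries as deposited, and 10 lower and 3 higher after median-ratio scaling. The table as a whole had 63.2% lower as deposited, and 33.0% lower and 32.4% higher after scaling. The BET bromodomain proteins BRD3 and BRD2, which bind acetylated histones, differed from each other. BRD3 stood at 4.86, 5.7 and 4.85 FPKM in Tibetan, 33.9, 31.8 and 29.4 FPKM in Wujin and 30.3, 28.1 and 28.3 FPKM in Large White libraries. In BRD3 no Tibetan library reached the level of another breed, and the relative change was -1.52 ± 0.11 (adjusted p = 2.36e-07). BRD2 stood at 25, 25.1 and 26.9 FPKM in Tibetan, 28, 35.7 and 35 FPKM in Wujin and 35.3, 33.8 and 36.2 FPKM in Large White libraries, and its call turned from lower (-0.44 as fitted, adjusted p = 0.00763) to higher (0.51 ± 0.10, adjusted p = 0.00181) with median-ratio scaling. The chromodomain proteins CBX2 and CBX1 were lower on both scales. CBX2, a subunit of Polycomb repressive complex 1, stood at 0.265, 0.271 and 0.304 FPKM in Tibetan, 5.81, 6.6 and 5.87 FPKM in Wujin and 8.64, 7.77 and 8.23 FPKM in Large White libraries, so that every Tibetan library was under 0.4 FPKM, a relative change of -2.07 ± 0.11 (adjusted p = 8.41e-08). CBX1, the heterochromatin protein HP1 beta, stood at 7.98, 6.62 and 7.75 FPKM in Tibetan, 15.7, 18.8 and 16.9 FPKM in Wujin and 22, 22.2 and 20.8 FPKM in Large White libraries. For CBX1 the breeds did not overlap, with a relative change of -0.65 ± 0.12 (adjusted p = 4.71e-06).

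Of 14 PHF finger proteins tested, 13 were lower in Tibetan than in Large White libraries as deposited, and 5 lower and 1 higher after scaling. Across all entries 63.2% were lower as deposited, and 33.0% were lower and 32.4% higher after scaling. PHF19, an accessory subunit of Polycomb repressive complex 2, stood at 0.136, 0.329 and 0.762 FPKM in Tibetan, 1.99, 3.48 and 3.85 FPKM in Wujin and 4.26, 4.27 and 4.78 FPKM in Large White libraries. In PHF19 no Tibetan library reached the level of another breed, and the relative change was -1.20 ± 0.22 (adjusted p = 3.29e-05). PHF13, a reader of methylated histones, stood at 1.3, 1.47 and 1.36 FPKM in Tibetan, 5.81, 5.78 and 6.52 FPKM in Wujin and 6.36, 6.61 and 8.1 FPKM in Large White libraries. Tibetan PHF13 lay below every other library, at a relative change of -0.98 ± 0.12 (adjusted p = 1.87e-06). Of the ING proteins, which guide acetyltransferase and deacetylase complexes, ING3 was lower on both scales and ING2 was not called as deposited and higher after scaling.

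The remodellers held some of the largest falls. As deposited 25 of 27 tested were lower in Tibetan than in Large White libraries, and after median-ratio scaling 14 were lower and 2 higher. Shares over all entries were 63.2% lower as deposited, and 33.0% lower and 32.4% higher after scaling. SMARCA1, an ATPase of the ISWI group, stood at 2.66, 2.56 and 1.4 FPKM in Tibetan, 18.4, 21.4 and 23.1 FPKM in Wujin and 25.7, 27.2 and 25.8 FPKM in Large White libraries. For SMARCA1 the breeds did not overlap, with a relative change of -2.34 ± 0.17 (adjusted p = 4.94e-07). SMARCA5, the other ISWI ATPase, stood at 5.64, 4.9 and 6.14 FPKM in Tibetan, 10.6, 13.8 and 17.8 FPKM in Wujin and 21.6, 22.7 and 22.2 FPKM in Large White libraries. In SMARCA5 no Tibetan library reached the level of another breed, and the relative change was -1.05 ± 0.17 (adjusted p = 1.11e-05). SMARCA4, the ATPase BRG1 of the SWI/SNF complexes, stood at 8.72, 7.42 and 7.3 FPKM in Tibetan, 20.1, 22.5 and 19.8 FPKM in Wujin and 21.9, 21.6 and 22.9 FPKM in Large White libraries. Tibetan SMARCA4 lay below every other library, at a relative change of -0.62 ± 0.11 (adjusted p = 4.14e-06). SMARCB1, a core SWI/SNF subunit, stood at 11.6, 10.9 and 10.3 FPKM in Tibetan, 40.0, 32.8 and 36.2 FPKM in Wujin and 42.5, 36.7 and 39.2 FPKM in Large White libraries. For SMARCB1 the breeds parted between Tibetan and the rest, with a relative change of -0.99 ± 0.12 (adjusted p = 1.41e-06). SMARCD3, the SWI/SNF subunit of heart and skeletal muscle, did not follow, at 46, 44.2 and 55.4 FPKM in Tibetan, 69.4, 60.0 and 50.6 FPKM in Wujin and 55.5, 44.9 and 49.3 FPKM in Large White libraries. Its breeds overlapped, and the fitted change of -0.041 was not called (adjusted p = 0.818) and was 0.92 ± 0.19 (adjusted p = 0.00259) after median-ratio scaling.

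All 8 CHD helicases tested were lower in Tibetan than in Large White libraries as deposited, and 6 were lower after scaling. Over all entries 63.2% were lower as deposited and 33.0% after scaling. CHD3 and CHD4 are alternative ATPases of the NuRD complex, which joins remodelling to deacetylation. CHD3 stood at 4.15, 3.74 and 4.41 FPKM in Tibetan, 30.9, 39.3 and 38.3 FPKM in Wujin and 35.6, 39.8 and 42.7 FPKM in Large White libraries. In CHD3 no Tibetan library reached the level of another breed, and the relative change was -2.21 ± 0.13 (adjusted p = 1.56e-07). CHD4 stood at 15.9, 15.3 and 15.8 FPKM in Tibetan, 47.1, 47.5 and 43.9 FPKM in Wujin and 52.4, 51.7 and 55.4 FPKM in Large White libraries. Tibetan CHD4 lay below every other library, at a relative change of -0.93 ± 0.095 (adjusted p = 5.48e-07). ARID2, a subunit of the SWI/SNF form called PBAF, stood at 1.7, 1.73 and 1.39 FPKM in Tibetan, 2.96, 5.15 and 5.12 FPKM in Wujin and 5.54, 6.44 and 5.93 FPKM in Large White libraries. For ARID2 the breeds did not overlap, with a relative change of -0.65 ± 0.18 (adjusted p = 7.65e-05). ARID5B, a DNA-binding partner of demethylases, stood at 7.39, 4.32 and 2.55 FPKM in Tibetan, 2.46, 3.06 and 3.78 FPKM in Wujin and 3.12, 3.47 and 3.54 FPKM in Large White libraries, with the Tibetan libraries spread from below all but 1 of the others to above all of them. Its fitted change of 0.31 was not called (adjusted p = 0.325), was called without Tibetan 3 (adjusted p = 0.0335), was -0.0085 without Tibetan 1, and was 1.08 ± 0.27 (adjusted p = 0.00579) after scaling. BAZ1B, a partner of SMARCA5, stood at 7.2, 7.03 and 7.62 FPKM in Tibetan, 14.4, 16.7 and 15.3 FPKM in Wujin and 15.8, 17.2 and 17.4 FPKM in Large White libraries. Tibetan BAZ1B lay below every other library, at a relative change of -0.33 ± 0.10 (adjusted p = 1.26e-05), which was not called after scaling, nor were the other 3 BAZ proteins.

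The high mobility group proteins, small non-histone proteins that bind DNA or nucleosomes, included the members that fell most. HMGB2, which bends DNA and is abundant in dividing cells, stood at 2.4, 3.73 and 1.86 FPKM in Tibetan, 42.3, 41.2 and 43.5 FPKM in Wujin and 50.4, 48.5 and 53.3 FPKM in Large White libraries. In HMGB2 no Tibetan library reached the level of another breed, and the relative change was -3.08 ± 0.17 (adjusted p = 1.66e-07). HMGN2, a nucleosome-binding protein and the member of highest FPKM in Wujin and Large White libraries, stood at 38.9, 55.9 and 40.4 FPKM in Tibetan, 391, 344 and 375 FPKM in Wujin and 439, 429.7 and 435 FPKM in Large White libraries. Tibetan HMGN2 lay below every other library, at a relative change of -2.49 ± 0.15 (adjusted p = 1.74e-07). HMGN3, of the same family, stood at 14.3, 15 and 12.4 FPKM in Tibetan, 44.5, 34.2 and 39.2 FPKM in Wujin and 49.3, 43.5 and 43.8 FPKM in Large White libraries. For HMGN3 the breeds parted between Tibetan and the rest, with a relative change of -0.87 ± 0.13 (adjusted p = 4.30e-06). HMGN4 stood at 10.8, 9.41 and 9.68 FPKM in Tibetan, 8.21, 10.4 and 10.4 FPKM in Wujin and 11.7, 12.5 and 10.9 FPKM in Large White libraries, with the Tibetan libraries just below those of Large White and overlapping the Wujin ones, a fitted change of -0.21 that was not called (adjusted p = 0.154) and a change of 0.69 ± 0.10 (adjusted p = 0.000268) after scaling. Genomes hold many near-identical processed copies of HMG genes and of CBX1, and how the authors assigned reads among such copies is not given in the sources used here, so these levels are uncertain.

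Pairs of related members were also compared within each library, where a scaling of the whole library cancels, as a description with pairs chosen after their values were seen. The ratio of EZH2 to EZH1 lay between 0.0587 and 0.141 in Tibetan, between 1.26 and 1.68 in Wujin and between 1.58 and 1.93 in Large White libraries. KAT2A stood to KAT2B at a ratio between 0.159 and 0.24 in Tibetan, between 1.27 and 3.59 in Wujin and between 1.46 and 1.76 in Large White libraries. In both pairs the gene of lower FPKM in Tibetan muscle was the one of higher FPKM in the other breeds. For SIRT1 over SIRT2 the ratio was between 0.0373 and 0.0532 in Tibetan, between 0.0993 and 0.168 in Wujin and between 0.195 and 0.281 in Large White libraries. For SMARCA1 over SMARCA5 it was between 0.229 and 0.523 in Tibetan, between 1.3 and 1.73 in Wujin and between 1.16 and 1.2 in Large White libraries. The ratio of CHD4 to CHD3 ran the other way, between 3.58 and 4.1 in Tibetan, between 1.15 and 1.52 in Wujin and between 1.3 and 1.47 in Large White libraries. HMGN2 was between 3.6 and 5.93 times HMGN4 in Tibetan, between 33 and 47.6 times in Wujin and between 34.4 and 40.0 times in Large White libraries. Tibetan libraries overlapped no other library in any of the 6 ratios.

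**Figure D3:**
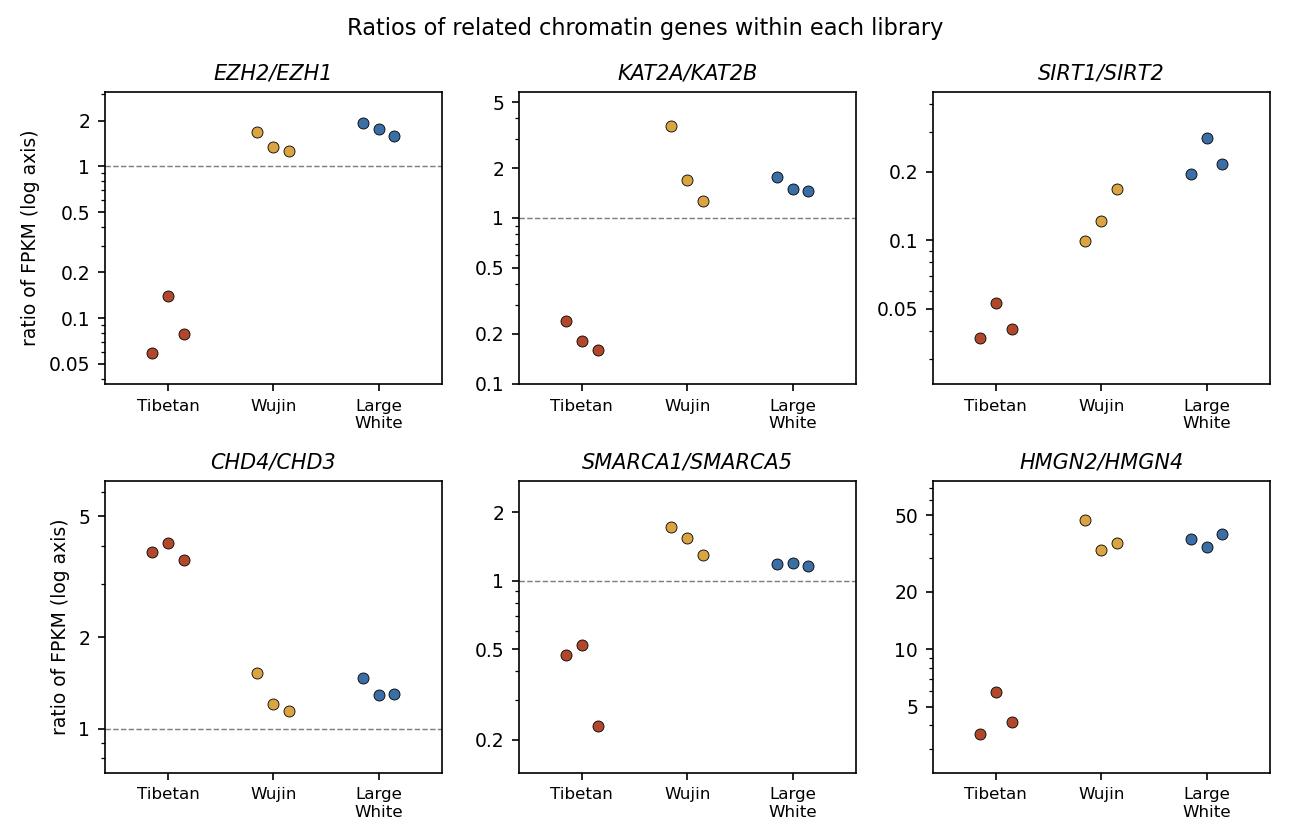
Ratio of FPKM of 6 pairs of related chromatin genes within each library on log axes, with 1 point for each library. Tibetan points lie apart from Wujin and Large White points in each pair, below them in 5 pairs and above them in CHD4/CHD3, while Wujin and Large White points overlap except in SIRT1/SIRT2 and SMARCA1/SMARCA5.

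Partners of these complexes whose symbols fall outside the rule were also mostly lower as deposited. Of 58 partners tested, 2 were higher and 45 lower in Tibetan than in Large White libraries, with a median relative change of -0.22, and 17 were higher and 26 lower after scaling. Of all entries, 13.0% were higher and 63.2% lower as deposited, and 32.4% were higher and 33.0% lower after scaling. The 2 partners that rose as deposited were DPF3, a SWI/SNF subunit of heart and skeletal muscle, and HR, a nuclear corepressor. DPF3 stood at 9.43, 5.51 and 7.98 FPKM in Tibetan, 1.04, 3.27 and 2.39 FPKM in Wujin and 0.863, 1.61 and 0.506 FPKM in Large White libraries, and HR at 5.99, 5.06 and 9.67 FPKM in Tibetan, 2.88, 2.03 and 1.92 FPKM in Wujin and 0.336, 0.289 and 0.114 FPKM in Large White libraries. UHRF1, which brings DNMT1 to replicating DNA, stood at 0.126, 0.324 and 0.228 FPKM in Tibetan, 11.2, 14.1 and 13.7 FPKM in Wujin and 15.2, 17.4 and 18.1 FPKM in Large White libraries. It was the partner of lowest relative change, and its Tibetan values lay under 0.4 FPKM. Histone chaperones were lower in 12 of 13 tested, and in 8, with 2 higher, after scaling.

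Markers of dividing cells and of several other cell types differed in the same contrast, to an extent that varied between the lists. Beside the counts below, 13.0% of all entries were higher and 63.2% lower as deposited. After scaling these shares were 32.4% and 33.0%. All 23 cell cycle markers tested were lower in Tibetan than in Large White libraries on both scales, and their summed FPKM was between 11.7 and 13.3 in Tibetan, between 171 and 211 in Wujin and between 266 and 291 in Large White libraries. CCNB2 and BUB1 were listed at 0 in Tibetan 2 and 3. All 13 fibroblast and matrix markers tested were lower as deposited and 12 after scaling, with sums between 431 and 464 in Tibetan, between 3539 and 6413 in Wujin and between 6137 and 6817 FPKM in Large White libraries. Of 18 skeletal muscle markers tested, 10 were higher and 4 lower as deposited, and 13 higher and 3 lower after scaling, with sums between 51778 and 91262 in Tibetan, between 27041 and 32424 in Wujin and between 18114 and 23604 FPKM in Large White libraries. The Tibetan sum of 51778 FPKM is that of Tibetan 2, where ACTA1 is listed at 0. Without ACTA1, a sum taken after the data were seen, the skeletal muscle markers came to between 42894.5 and 51778 FPKM in Tibetan, between 19893 and 26716 FPKM in Wujin and between 14906 and 19537 FPKM in Large White libraries. Cartilage and tendon markers summed to values between 1.1 and 1.87 FPKM in Tibetan, between 66.1 and 95.3 FPKM in Wujin and between 67.1 and 219.8 FPKM in Large White libraries, all 5 tested being lower on both scales, with COL9A1 and MATN1 listed at 0 in all Tibetan libraries. Erythroid markers summed to values between 146 and 575 FPKM in Tibetan, between 1466 and 3826 FPKM in Wujin and between 1919 and 3731 FPKM in Large White libraries, both tested being lower on both scales, with HBZ listed at 0 in all Tibetan libraries. Schwann and neuronal markers, with 1 higher and 3 lower of 4 on both scales, summed to values between 13.4 and 25.1 FPKM in Tibetan, between 81.1 and 99.4 FPKM in Wujin and between 92.8 and 97.2 FPKM in Large White libraries. Endothelial markers, with 3 lower of 5 as deposited and 2 higher and 1 lower after scaling, summed to values between 38.9 and 54.7 FPKM in Tibetan, between 58.1 and 89 FPKM in Wujin and between 92 and 96.7 FPKM in Large White libraries. Leukocyte markers, with 1 lower of 4 as deposited and 2 higher after scaling, summed to values between 10.7 and 18.6 FPKM in Tibetan, between 9.23 and 15 FPKM in Wujin and between 15.7 and 20.2 FPKM in Large White libraries. Of the adipocyte markers the 1 tested was not called, with sums between 2.77 and 6.63 FPKM in Tibetan, between 1.46 and 4.01 FPKM in Wujin and between 1.48 and 2.02 FPKM in Large White libraries. The part of these markers in the changes of the chromatin genes was not tested.

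Tibetan and Wujin muscle, both of indigenous breeds, also differed in most chromatin genes. Of the 128 tested, 6 were higher in Tibetan than in Wujin libraries (4.69%, against 13.8% of all entries) and 96 lower (75%, against 53.9%), and after median-ratio scaling 20 were higher and 46 lower, beside 30.9% and 30.4% of all entries. The comparison shares the Tibetan libraries with the one above, so the values are given side by side and neither supports the other. All Tibetan libraries lay above all Wujin libraries in 7 members (5.47%, against 14.2% of all entries) and below them in 93 (72.7%, against 53.5%). The 6 called higher were SMYD2, KAT2B, HDAC10, SIRT2, SETD7 and EZH1. SMYD2 had a relative change of 3.08 ± 0.13 (adjusted p = 4.57e-07), KAT2B of 2.47 ± 0.25 (adjusted p = 0.000132), HDAC10 of 1.36 ± 0.19 (adjusted p = 0.00432) and SIRT2 of 1.11 ± 0.15 (adjusted p = 0.00722). SETD7 had a relative change of 1.25 ± 0.21 (adjusted p = 0.0142), which was lost without Tibetan 3 (adjusted p = 0.0517), and EZH1 of 1.03 ± 0.16 (adjusted p = 0.0217), which was lost without Tibetan 1 (adjusted p = 0.067) or Tibetan 3 (adjusted p = 0.0558) and within the 6 libraries of this pair. The calls of SMYD2, KAT2B, HDAC10 and SIRT2 held whichever library was left out. On the lower side HMGB2 had a relative change of -3.05 ± 0.17 (adjusted p = 3.02e-07), HMGN2 of -2.48 ± 0.15 (adjusted p = 3.26e-07), CHD3 of -2.31 ± 0.13 (adjusted p = 2.51e-07) and SMARCA1 of -2.24 ± 0.17 (adjusted p = 1.21e-06). CBX2 had -1.92 ± 0.11 (adjusted p = 2.02e-07), BRD3 -1.86 ± 0.11 (adjusted p = 2.51e-07), EZH2 -1.64 ± 0.13 (adjusted p = 9.54e-07) and DNMT1 -1.50 ± 0.14 (adjusted p = 2.51e-06) as relative changes.

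Wujin and Large White muscle differed in few chromatin genes. By limma, 0 of the 128 members were called higher in Wujin libraries (1.67% of all entries were), and 6 lower (4.69%, against 4.85% of all entries). At an unadjusted p under 0.05, 2 members were higher (1.56%, against 6.0% of all entries) and 30 lower (23.4%, against 26.4%). After median-ratio scaling 1 was higher, SMARCC2, and 0 were lower, beside 1.86% and 1.27% of all entries. The share called lower was close to that of all entries. HDAC2 had a relative change of -0.40 ± 0.14 (adjusted p = 0.0397), KDM3A of -0.34 ± 0.13 (adjusted p = 0.046) and PRDM11 of -0.61 ± 0.18 (adjusted p = 0.0402), with per-library values given above. SIRT1 had a relative change of -0.42 ± 0.15 (adjusted p = 0.0447). PRMT9 and PRMT3, arginine methyltransferases, complete the 6. PRMT9 stood at 0.803, 1.06 and 1.23 FPKM in Tibetan, 1.13, 1.7 and 2.14 FPKM in Wujin and 3.07, 3.61 and 3.53 FPKM in Large White libraries. Its change from Large White was -0.55 ± 0.17 (adjusted p = 0.0386) on the relative scale. PRMT3, which methylates a ribosomal protein, stood at 2.03, 2.19 and 1.33 FPKM in Tibetan, 1.45, 1.83 and 1.73 FPKM in Wujin and 3.54, 3.73 and 3.55 FPKM in Large White libraries, with Wujin and Tibetan values overlapping below the Large White ones and a relative change of -0.59 ± 0.15 (adjusted p = 0.0271). In all 6 the Wujin libraries lay below the Large White libraries, and in all but PRMT3 above the Tibetan ones except that PRMT9 in Wujin 1 lay within the Tibetan range. All 6 calls were lost without Wujin a or without any 1 Large White library, those of KDM3A, PRDM11, PRMT9 and SIRT1 without Wujin 1, and those of all but PRMT3 without any 1 Tibetan library, which enters through the shared estimate of spread. Over the libraries left out the adjusted p-value was 0.035 to 0.14 for HDAC2, 0.0418 to 0.166 for KDM3A, 0.0301 to 0.148 for PRDM11, 0.0331 to 0.15 for SIRT1, 0.0301 to 0.14 for PRMT9 and 0.0197 to 0.112 for PRMT3. Without Wujin b 8 members were called lower. Wujin 1 was the lowest of its breed in 62.5% of the members, beside 63.2% of all entries, and its part in these differences was not tested beyond leaving it out. All Wujin libraries lay below all Large White libraries in 49 members (38.3%, against 35.3% of all entries) and above them in 6 (4.69%, against 9.67%).

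**Figure D4:**
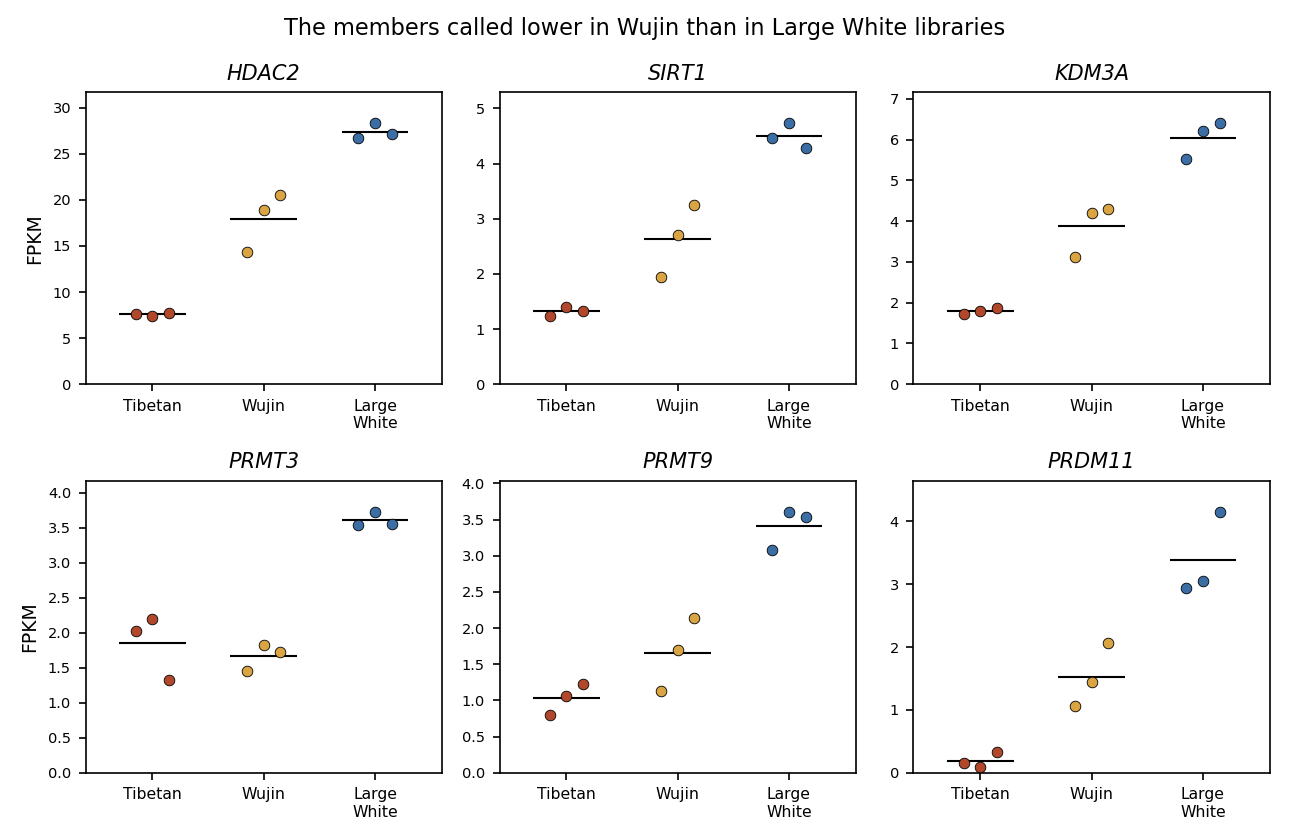
FPKM in each library of the 6 members called lower in Wujin than in Large White libraries, with points for the libraries and a line at the breed mean (n = 3). Each Wujin point lies below each Large White point as deposited, and none of the 6 calls remained after median-ratio scaling.

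SMARCC2, a core SWI/SNF subunit, was the 1 member called higher in Wujin than in Large White libraries after scaling. It stood at 7.81, 5.98 and 7.04 FPKM in Tibetan, 16.7, 17.3 and 15.7 FPKM in Wujin and 8.35, 11.8 and 13.2 FPKM in Large White libraries, so that the Wujin libraries lay above those of both other breeds. The relative change from Large White was 0.75 ± 0.17 (adjusted p = 0.0696) as deposited, not called, and 0.76 ± 0.16 (adjusted p = 0.0419) after scaling.

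Tested for any breed difference at all with limma's F statistic, 111 of the 128 members were called (86.7%), against 77.6% of all entries. As a share of a library's summed FPKM the 146 members made up between 0.144% and 0.152% in Tibetan, between 0.351% and 0.359% in Wujin and between 0.351% and 0.395% in Large White libraries. Such a sum is weighted to members of high FPKM, among them HMGN2, at breed means of 45.1, 370 and 435 FPKM in the same order. The median FPKM of all entries tested was between 3.15 and 3.61 in Tibetan, between 4.84 and 6.27 in Wujin and between 6.72 and 7.2 in Large White libraries. ACTA1 is listed at 0 in Tibetan 2, and its part in that library's share was not tested.

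The 18 members under the mean of 1 FPKM stayed at or below 1.72 FPKM in every library. They were ARID3B, ARID3C, CHD5, DNMT3L, KDM4C, KDM7A, PHF21B, PHF24, PHF7, PRDM1, PRDM16, PRDM6, PRDM7, PRMT8, SETD6, SETD9, SETDB2 and TET3. Tested without a minimum, 9 of them were lower and 2 higher in Tibetan than in Large White libraries. In that fit 50.9% of all 19643 entries were lower and 10.4% higher, and of the 6537 entries under the minimum 28.6% were lower and 6.07% higher. The 2 were KDM7A, a demethylase of repressive marks, at 1.26, 1.72 and 1.68 FPKM in Tibetan, 0.279, 0.576 and 0.935 FPKM in Wujin and 0.695, 0.897 and 0.90 FPKM in Large White libraries, and PHF21B, a finger protein, at 0.514, 0.338 and 0.617 FPKM in Tibetan, 0.0569, 0.0528 and 0 FPKM in Wujin and 0.171, 0.0488 and 0.294 FPKM in Large White libraries. KDM7A, at a mean of 0.994 FPKM, was the member just under the minimum, and PRDM10, at 1.01 FPKM, the member just above it.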

How the data were processed

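RNA-seq of embryonic longissimus dorsi muscle from 9 pig samples, 3 of each breed, was analysed from 1 deposited table of FPKM values, a unit named per the file headers and values. Reads were mapped with TopHat, per the submitters' processing notes. The quantifier, genome build, annotation, strand setting and depth are, for this series, not given in the sources used here. Entries were paired with symbols through the NCBI pig gene tables. A pair of Wujin columns carries the same header, so they are Wujin replicates with no number, called a and b, and 0 sample columns were left unused.

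Entries whose 9 samples averaged 1 FPKM or more were taken to log2(FPKM + 1), computed from the deposited FPKM, and fitted with limma 3.58.1 (R 4.3.3, empirical Bayes with a trend, 1 mean for each breed, 6 residual degrees of freedom), with two-sided tests and Benjamini-Hochberg adjustment over all 13106 entries. The procedure was tested on simulated data. Tables and figures used Python 3.11.15, pandas 2.3.3 and matplotlib 3.10.9. Alternatives were pseudocounts of 0.1 and 5, no minimum, a mean of at least 5 FPKM, median-ratio, quantile and equal-total scaling, a minimum log2 change of 1, only the pair's 6 samples, a replicate block, and each sample left out.

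The rule, members and lists were chosen with earlier results of these data known. Genes named in full were key members listed beforehand and the most changed of each class. KDM8, KDM7A, PHF19, PHF21B, SMARCC2, HMGN4, UHRF1, DPF3, HR, HDAC8 and the ratio pairs were chosen after their values were seen. Same-numbered Tibetan and Large White samples did not deviate together (correlations of 0.013, -0.023 and -0.076), so the numbers were not taken to pair samples. Sequences and promoter motifs were not used here, and a few members counted in their classes are not reported here by name.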

Additional observations from a re-analysis of the deposited data

How the results depend on the processing

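Against Large White, the count of members higher in Tibetan libraries moved to 27 with median-ratio scaling, 25 with quantile normalization and 7 with equal totals, and the count lower to 48, 46 and 89 in the same order, to 61 with a mean of at least 5 FPKM (73 members tested) and to 60 with a log2 change of at least 1. The whole table moved too. With median-ratio scaling 32.4% of all entries were higher and 33.0% lower, beside 13.0% and 63.2% as deposited. The median change of all entries, -0.77 as deposited, was 0.0083 with quantile normalization and -0.57 with equal totals. Shares of all entries called under those 2 settings are not given here. Against Wujin, the higher count was 20 with median-ratio scaling, 21 with quantile normalization and 2 with a log2 change of at least 1, and the lower count 46, 51 and 43 in that order and 56 with a mean of at least 5 FPKM. Here 30.9% of all entries were higher and 30.4% lower with median-ratio scaling, beside 13.8% and 53.9% as deposited. Between Wujin and Large White, members higher were 2 with a pseudocount of 5, 1 with median-ratio scaling and 2 with quantile normalization, and members lower were 13 with a pseudocount of 5, 3 with quantile normalization, 1 with a pseudocount of 0.1, with a mean of at least 5 FPKM, with equal totals and with only the pair's 6 samples, and 0 with median-ratio scaling and with a log2 change of at least 1. Leaving out each sample gave 4 to 6 higher and 101 to 107 lower for Tibetan minus Large White, 5 to 7 and 85 to 99 for Tibetan minus Wujin, and 0 to 0 and 0 to 8 for Wujin minus Large White. Without Wujin a or any 1 Large White library no member was lower between Wujin and Large White. In that comparison 1.86% of all entries were higher and 1.27% lower with median-ratio scaling, beside 1.67% and 4.85% as deposited.

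Signs that turned in Tibetan minus Large White were, in log2 change with median-ratio scaling, EED 0.34, PRMT1 0.57, PRMT5 0.58, HDAC5 0.38, SIRT3 0.73, BRD2 0.51, SMARCD3 0.92 and HMGN4 0.69. With quantile normalization they were EED 0.34, PRMT5 0.18, SIRT3 0.80, SMARCD3 0.19 and HMGN4 0.49, and with equal totals SIRT3 0.15, SMARCD3 0.21 and HMGN4 0.026. Over the samples left out, SIRT3 ranged between -0.17 (without Tibetan 3) and 0.050 (without Tibetan 2), SMARCD3 between -0.14 (without Tibetan 3) and 0.038 (without Large White 1, and 0.021 without Tibetan 2), and ARID5B between -0.0085 (without Tibetan 1) and 0.61 (without Tibetan 3). The cause of these turns was not tested. With replicate number as a block, 4 members were higher and 105 lower in Tibetan minus Large White, and of the genes named PRMT5 lost its call. The numbers were not taken to pair samples, and with 2 Wujin columns carrying no number of their own the block was fitted for this comparison alone. EZH2, DNMT1, HMGB2, HMGN2, CHD3, SMARCA1, CBX2, SMYD2, KAT2B and HDAC10 kept direction and call against Large White under every alternative run, except that CBX2 and HDAC10, with means under 5 FPKM, had no value in the fit with that minimum. Depth is unknown, so no counting limit could be set on low FPKM values.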
